A study of Mus musculus with 10 samples.

Results

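The genes described here are 37 out of 55487 genes in the table of pancreatic tumours. They mark B lymphocytes, T lymphocytes and natural killer (NK) cells and were chosen by name, with earlier results of these data known. All 37 had a row in the table. They were followed in 10 primary pancreatic tumours of KPF mice (strain background C57BL/6J), used when 6 to 12 weeks old. The 5 tumours labelled Grem1wt/wt came from mice given vehicle, peanut oil, and the 5 labelled Grem1∆/∆ came from mice given tamoxifen at 100 mg/kg of body weight, with either agent dosed daily over 5 days in mice 5 weeks old. Tamoxifen and the Grem1 genotype went together in every animal, so their parts in any difference cannot be told apart. The labels do not name the recombinase that tamoxifen acts on or the cells that carry it, and they call the material bulk tumour tissue while the extraction text speaks of sorted cells.

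B lymphocytes carry an antigen receptor whose signalling chains are CD79A and CD79B, and plasma cells, their antibody-secreting descendants, lose most of these surface proteins and make large amounts of immunoglobulin joined by the J chain. T lymphocytes carry a receptor that signals through the CD3 chains and works with the coreceptors CD4 and CD8. Cytotoxic T cells and NK cells kill targets with perforin, which opens membranes, and with granzymes. Lymphotoxins are cytokines of lymphocytes that organise lymphoid tissue, and clusters of B and T cells with high endothelial venules can form in chronically inflamed organs and in tumours, where they are called tertiary lymphoid structures. Pancreatic tumours are known for a dense stroma and for few lymphocytes.

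The targeted gene was not lower as a group in the libraries labelled deleted. Grem1, which encodes the BMP antagonist Gremlin 1, stood at 15.7, 43.1, 23.0, 3.96 and 9.49 CPM (the usual library-size-scaled count, here with TMM scaling) in wild-type tumours 1 to 5. It stood at 47.6, 110.0, 12.6, 6.84 and 23.7 CPM in the libraries labelled deleted. The groups overlapped, and the library labelled deleted 2 was the highest. The log2 fold change of Grem1, labelled-deleted against wild-type, was 1.08 (SE 0.79, edgeR adjusted p = 0.761), so these counts do not check the labels. The groups are therefore called wild-type and labelled-deleted below, and each direction rests on those labels. Total estimated counts ran from 10159891 to 18571519 per library, so a single count was worth 0.0534 to 0.101 CPM. Macrophage, fibroblast, epithelial and endothelial markers were present in every library, as in whole tumour tissue. In such tissue, fewer cells of a type and less RNA per cell cannot be told apart.

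The promoters of the NK and cytotoxic genes shared a short sequence. RefSeq (GRCm38.p6) held promoter entries for 28 of the 37 genes. Among the 250 bases before the start, the core site of RUNX factors (TGTGGT on either strand), regulators of T and NK cells, was found in 6 of 6 NK and cytotoxic genes and in 3 of the other 22 genes with an entry (Lck, Fcer2a and Tnfrsf13c), against 15.9% of 27025 genes in the table. The octamer ATGCAAAT, bound by OCT factors in B cells, was in 0 of 28 (1.8% of all genes), and the EBF1 core CCCNNGGG was in 4 of 28 (Bank1, Cd22, Cd27 and Prf1; 13.4% of all genes). No match of 1 pattern overlapped a match of another. The NK and cytotoxic stretches are shown because all of them held the RUNX letters although, as described below, their levels did not move together. Each line gives 140 bases that end at the last base outside annotated exons, on the strand of the gene, with the RUNX core in capitals. The window of Klrb1c lay wholly in an exon of a longer annotated form and is not printed, and a further match of Ncr1 lies upstream of the stretch.

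Gzma, chr13:113100982-113101121, minus strand: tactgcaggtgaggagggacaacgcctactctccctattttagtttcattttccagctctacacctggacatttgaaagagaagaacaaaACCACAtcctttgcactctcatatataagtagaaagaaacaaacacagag

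Gzmb, chr14:56262335-56262474, minus strand: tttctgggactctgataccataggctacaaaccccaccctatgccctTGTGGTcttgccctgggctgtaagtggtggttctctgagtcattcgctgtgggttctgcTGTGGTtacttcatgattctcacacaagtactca

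Prf1, chr10:61297693-61297832, plus strand: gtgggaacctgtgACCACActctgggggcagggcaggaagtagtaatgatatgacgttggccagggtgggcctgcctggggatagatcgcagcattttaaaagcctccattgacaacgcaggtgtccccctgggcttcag

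Nkg7, chr7:43436933-43437072, plus strand: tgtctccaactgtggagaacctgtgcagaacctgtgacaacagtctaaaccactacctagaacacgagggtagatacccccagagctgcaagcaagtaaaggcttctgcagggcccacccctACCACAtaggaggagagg

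Ncr1, chr7:4337575-4337714, plus strand: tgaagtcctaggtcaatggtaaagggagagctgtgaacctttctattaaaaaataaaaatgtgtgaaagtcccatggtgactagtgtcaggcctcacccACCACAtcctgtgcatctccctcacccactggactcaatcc

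A match is a description of letters and not evidence of binding. Gzma encodes granzyme A, Gzmb granzyme B, Prf1 perforin, Nkg7 a protein of cytotoxic granules, and Ncr1 the NK receptor NKp46.

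Lymphocyte RNA was distributed unevenly among the tumours, and the groups overlapped. Summed over the 37 genes, labelled-deleted tumour 3 held 911 CPM, which was 2.7 times the next library, wild-type tumour 3 at 337 CPM, and the lowest was wild-type tumour 2 at 50 CPM. Of the 37 genes, 30 had their highest value in labelled-deleted tumour 3, 3 in labelled-deleted tumour 1, 2 in labelled-deleted tumour 2 and 2 in wild-type tumour 1. Some leads were narrow, as for Lta (1.23 against 1.21 CPM in wild-type 5) and Foxp3 (5.83 against 5.53 CPM in wild-type 3). The share of all genes that were highest in labelled-deleted tumour 3 was not counted. The SD of log2 CPM over the 10 libraries had a median of 1.68 over the 29 genes that passed the low-count filter, beside 0.3 over all 16565 genes that passed it.

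**Figure D1:**
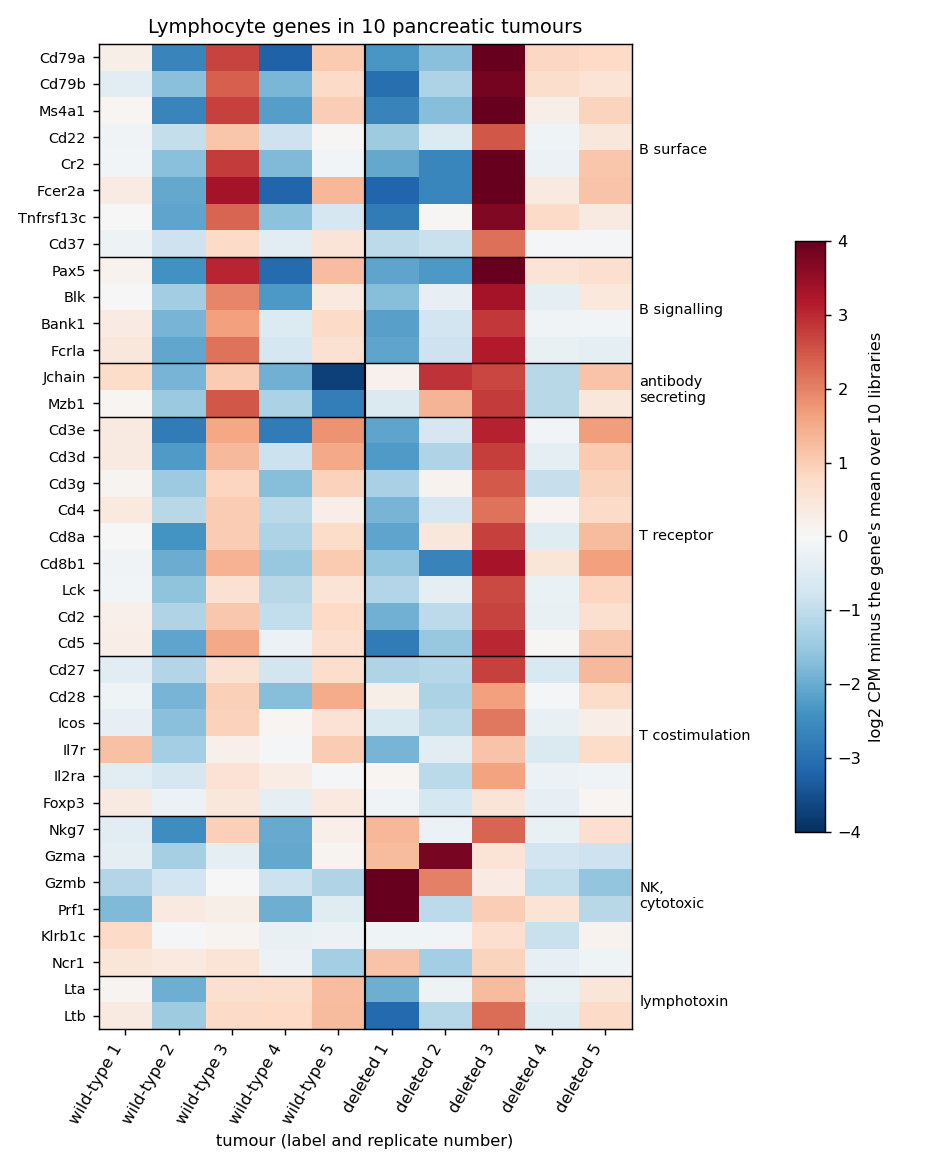
Each row is 1 of the 37 genes and each column 1 tumour, and the colour is log2 CPM minus the gene's mean over the 10 libraries, with the scale ending at 4 either way. Labelled-deleted tumour 3 is highest in 30 of 37 rows, while Gzmb and Prf1 peak in labelled-deleted tumour 1.

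B-lymphocyte surface receptors showed the largest spread. Cd79a (ENSMUSG00000003379, chr7:24897381-24902197, plus strand), a signalling chain of the B-cell receptor, stood at 4.95, 0.547, 27.8, 0.305 and 8.77 CPM in wild-type tumours 1 to 5 and at 0.712, 1.21, 81.6, 7.58 and 7.43 CPM in labelled-deleted tumours 1 to 5. Ms4a1 (chr19:11249675-11266241, minus strand), which encodes CD20, stood at 2.04, 0.182, 13.9, 0.305 and 4.03 CPM and at 0.178, 0.497, 40.14, 2.3 and 3.75 CPM in the same order. In both genes tumour 3 of each group was the highest of its group, 4 libraries (wild-type 2 and 4, labelled-deleted 1 and 2) were low, and the groups overlapped. Tumour 3 of each group and wild-type tumour 2 have the tumour ID number 38 in their titles. Cr2 (chr1:195136811-195176716, minus strand), the complement receptor CD21 of mature B cells and follicular dendritic cells, was at 1.1, 0.273, 9.33, 0.244 and 1.11 CPM and at 0.178, 0.071, 34.1, 1.01 and 2.76 CPM. Fcer2a, the low-affinity IgE receptor CD23, had the widest range of the list and was at 1.57, 0.182, 13.6, 0 and 3.23 CPM and at 0, 0.071, 31.2, 1.6 and 2.83 CPM, with 0 counts in 2 libraries. All 12 B surface and signalling genes were highest in labelled-deleted tumour 3 and second in wild-type tumour 3.

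The B-cell regulators behaved alike. Pax5, the transcription factor that holds B-cell identity, stood at 1.81, 0.182, 14.6, 0.061 and 4.03 CPM in wild-type and at 0.267, 0.213, 35.7, 2.46 and 2.63 CPM in labelled-deleted tumours. Blk, a B-cell Src-family kinase, stood at 1.18, 0.364, 5.12, 0.122 and 1.61 CPM and at 0.267, 0.922, 13.5, 0.907 and 1.64 CPM. Both put labelled-deleted tumour 3 first by over 2-fold (2.45 and 2.64 times the next library), and the remaining libraries of the groups overlapped. Of the other B genes, Cd79b reached 47.1 CPM, Cd22, an inhibitory sialic-acid receptor, 61.4 CPM, the tetraspanin gene Cd37 94.6 CPM, the BAFF receptor gene Tnfrsf13c 13.3 CPM, the adaptor gene Bank1 24.8 CPM and Fcrla 9.03 CPM, each in labelled-deleted tumour 3. Cd37 and Cd22 had the narrowest ranges, with lowest values of 9.88 and 4 CPM. Exons of Cd37 overlap Tead2 on the opposite strand, and those of Cd22 and Pax5 overlap antisense transcripts. The strand setting of the counting is unknown here, so reads of antisense partners cannot be told apart.

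The antibody-secreting genes had a different order of tumours. Jchain (chr5:88519809-88527891, minus strand), the immunoglobulin J chain, stood at 47.8, 7.74, 58.4, 7.38 and 2.02 CPM in wild-type tumours 1 to 5 and at 32.2, 216, 182, 13.3 and 63 CPM in labelled-deleted tumours 1 to 5. It was highest in labelled-deleted tumour 2, where Cd79a was 1.21 CPM, and lowest in wild-type tumour 5, where Cd79a was 8.77 CPM. Mzb1, an endoplasmic reticulum cofactor of antibody secretion, reached 11.6, 9.33 and 4.19 CPM in labelled-deleted 3, wild-type 3 and labelled-deleted 2 and was 2.17 CPM or lower in the rest. Its exons overlap a neighbouring gene on the same strand. The light-chain constant gene Igkc, a non-member of the plasma-cell list, was 118, 30.3, 213, 17.9 and 11.7 CPM in wild-type tumours 1 to 5 and 96.7, 429, 662, 45.6 and 146 CPM in labelled-deleted tumours 1 to 5. Labelled-deleted 2 and 3 were the highest, and the other 3 of that group lay within the wild-type range. Its per-library values were chosen for printing after they were seen. Labelled-deleted tumour 2 also held all 4 intestinal epithelium markers, summed to 1540 CPM, against 0.605 to 2.67 CPM in wild-type tumours and 0.328 to 6.85 CPM in the other labelled-deleted tumours. Within that list Sis was at 0 in all 5 wild-type tumours and Apoa4 was at 0 in wild-type 2, 3 and 5 and labelled-deleted 3. The part of this material in the Jchain value was not tested.

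T-cell receptor genes followed the B genes. Cd3e (ENSMUSG00000032093, chr9:44998740-45009627, minus strand), a CD3 signalling chain, stood at 1.18, 0, 2.89, 0 and 3.43 CPM in wild-type tumours 1 to 5 and at 0.089, 0.497, 8.62, 0.801 and 3.16 CPM in labelled-deleted tumours 1 to 5. Wild-type tumours 2 and 4 had 0 counts, where 3 counts would be 0.273 and 0.183 CPM, and labelled-deleted tumour 3 was 2.51 times the next library. Cd3e lies beside Cd3d and Cd3g, whose levels peaked at 7.63 and 9.11 CPM in the same library. Cd4 (chr6:124864692-124888221, minus strand), the coreceptor of helper T cells, also present on some myeloid cells, was at 5.66, 1.91, 8.84, 1.95 and 5.24 CPM and at 1.07, 2.63, 19.9, 4.64 and 7.49 CPM. Cd8a (chr6:71373427-71379173, plus strand), the coreceptor of cytotoxic T cells, was at 2.04, 0.273, 4.29, 0.793 and 3.53 CPM and at 0.356, 2.91, 14.7, 1.44 and 5.13 CPM. The groups overlapped in each of the 9 genes of this list, and all 9 were highest in labelled-deleted tumour 3. Cd8b1, the second CD8 chain, was at 0.708, 0.0911, 2.31, 0.183 and 1.81 CPM and at 0.178, 0, 9.19, 1.17 and 2.83 CPM. Lck, the kinase bound to the coreceptors, was at 3.3, 1.09, 5.53, 1.59 and 5.34 CPM and at 1.51, 2.7, 22.9, 2.99 and 6.57 CPM. The adhesion gene Cd2 and the receptor gene Cd5 reached 14.4 and 8.13 CPM.

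Genes of costimulation and cytokine reception were flatter. Foxp3 (chrX:7573644-7595245, plus strand), the transcription factor of regulatory T cells, stood at 5.19, 3.37, 5.53, 3.05 and 5.34 CPM in wild-type and at 3.65, 2.41, 5.83, 3.2 and 4.27 CPM in labelled-deleted tumours, a range of 1.22 on the log2 scale against 5.87 for Cd3e. Foxp3 exons overlap those of 4 annotated genes, among them Ppp1r3f and Ccdc22, so its counts can hold reads of neighbours. Cd28, the main costimulatory receptor, was at 0.629, 0.0911, 1.57, 0.122 and 2.32 CPM and at 0.89, 0.213, 2.63, 0.694 and 1.31 CPM, with tumour 3 or 5 highest in each group. Il7r, the receptor of the survival cytokine IL-7, was highest in wild-type tumour 1 at 18.6 CPM, close to labelled-deleted tumour 3 at 18 CPM. Cd27, Icos and Il2ra reached 6.24, 3.2 and 5.42 CPM, all in labelled-deleted tumour 3.

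**Figure D2:**
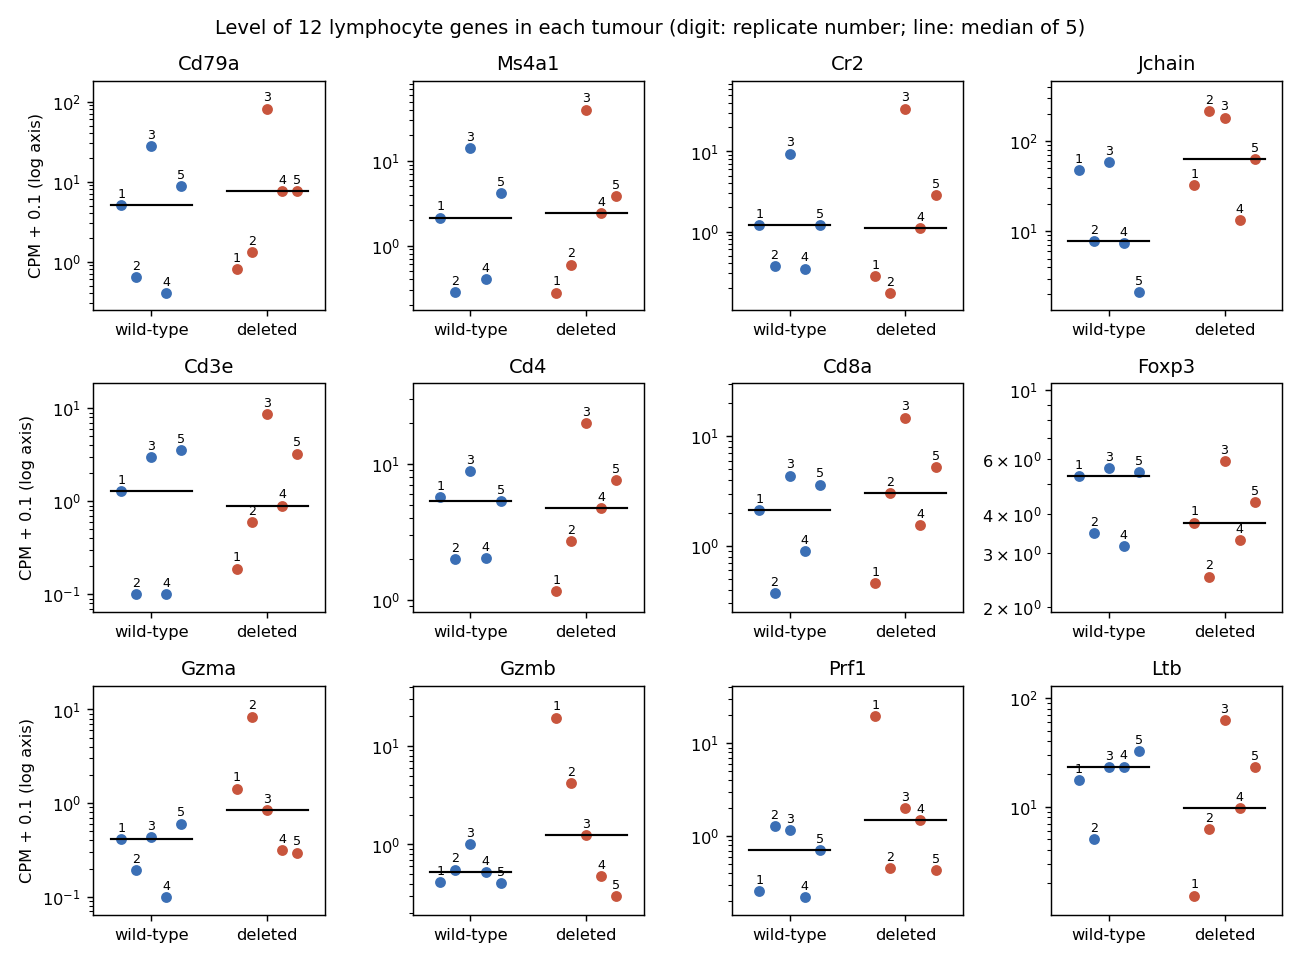
Each point is 1 tumour, with its replicate number, and the horizontal line is the median of 5. The vertical axis is CPM plus 0.1 on a log scale, fitted to each gene. Tumour 3 of the labelled-deleted group is highest for Cd79a, Ms4a1, Cr2, Cd3e, Cd4, Cd8a, Foxp3 and Ltb, tumour 2 for Jchain and Gzma, and tumour 1 for Gzmb and Prf1.

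The NK and cytotoxic genes, apart from Nkg7, were not highest where the T-receptor genes were. Gzmb (chr14:56258838-56262260, minus strand) stood at 0.314, 0.455, 0.908, 0.427 and 0.302 CPM in wild-type tumours 1 to 5 and at 19.3, 4.12, 1.15, 0.374 and 0.197 CPM in labelled-deleted tumours 1 to 5. Prf1 (chr10:61297833-61304680, plus strand) was at 0.157, 1.18, 1.07, 0.122 and 0.605 CPM and at 19.4, 0.355, 1.89, 1.39 and 0.329 CPM. Both were highest in labelled-deleted tumour 1, Prf1 by 10.3 times the next library, while Cd3e was 0.089 CPM there and Cd5 was at 0. Gzma (chr13:113093825-113100981, minus strand) was instead highest in labelled-deleted tumour 2, with 0.314, 0.0911, 0.33, 0 and 0.504 CPM in wild-type and 1.33, 8.3, 0.739, 0.214 and 0.197 CPM in labelled-deleted tumours. Nkg7 (chr7:43437073-43438249, plus strand) was at 0.472, 0, 1.49, 0.061 and 0.807 CPM and at 1.96, 0.568, 4.1, 0.534 and 1.18 CPM, highest in labelled-deleted tumour 3. Ncr1, the NK-cell receptor, had at most 8 counts in any library, at 0.393, 0.364, 0.413, 0.183 and 0 CPM and at 0.712, 0, 0.575, 0.16 and 0.197 CPM. At this depth no order can be read from Ncr1. Klrb1c, which encodes NK1.1, ran from 0.587 to 2.2 CPM.

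Labelled-deleted tumour 1 stood apart in other lists as well. Its 6 interferon-response genes summed to 1240 CPM, where the rest ran from 39 to 192 CPM, its 5 proliferation genes to 859 CPM against 200 to 414 CPM, and its 6 pan-leukocyte genes to 400 CPM, the lowest of all. In the same library the T-receptor constant gene Trbc2 was 45.1 CPM (4.74 to 15.2 CPM elsewhere) and granzyme C (Gzmc) was 41.4 CPM (0.328 to 6.09 CPM elsewhere). Trac, the alpha-chain constant gene, named after its values were seen, was 0.178 CPM there. Trbc1 and Trbc2 are close copies between which estimated counts can be divided, so their values are uncertain. The granzyme genes are a family of related genes, and whether counts were divided among them was not tested. The part of any of these in the Gzmb and Prf1 values was not tested.

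Lymphotoxin beta was abundant for a lymphocyte gene. Ltb (chr17:35194439-35196320, plus strand) stood at 17.5, 4.92, 23, 23.4 and 32.5 CPM in wild-type and at 1.42, 6.1, 63.3, 9.55 and 23.2 CPM in labelled-deleted tumours, and the labelled-deleted group held both the lowest and the highest library. Lta, its partner (chr17:35203165-35205351, minus strand), was at 0.472, 0, 0.743, 0.793 and 1.21 CPM and at 0, 0.355, 1.23, 0.32 and 0.657 CPM, with 0 counts in 2 libraries. Mean levels over the 10 libraries were divided by the merged length of all annotated exons of a gene. That length can exceed the length of the transcripts present, so the order of genes is approximate. The values were 25 CPM per kb for Jchain, 13.5 for Ltb, 9.67 for Cd79a, 7.55 for Cd37 and 5.99 for Cd79b. On the same scale Cd4 was at 1.47, Cd8a at 0.975 and Cd3e at 0.507 CPM per kb, and the lowest were Cd28 at 0.171 and Ncr1 at 0.195 CPM per kb. Of the genes named here, all but Jchain and Ncr1 were highest in labelled-deleted tumour 3, which weighs on their means.

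The comparison of labelled-deleted with wild-type tumours asked whether lymphocyte genes differed with the Grem1 label. None of the 37 genes did at the threshold. After the low-count filter 29 were tested by edgeR's quasi-likelihood test. The 8 that did not pass were Fcrla, Cd27, Icos, Nkg7, Gzma, Gzmb, Ncr1 and Lta. At a Benjamini-Hochberg adjusted p under 0.05, 0 of 29 members were called, and over all genes 0% (0 of 16565). At an unadjusted p under 0.05 there was 1 member, Prf1, beside 5.93% of all genes tested, a share of members no higher than the background. DESeq2 called 0 of the 30 members it tested and 0.0224% of genes (7 of 31198). It gave no p for Cd79a, Ms4a1, Cr2, Fcer2a, Pax5, Blk and Prf1, so it leaves these genes untested. At an unadjusted DESeq2 p under 0.05 there were 3 members (Gzmb, Gzma and Jchain), beside 1509 of 31198 genes. The lowest DESeq2 adjusted p of a member was 0.349. No member had all 5 labelled-deleted libraries on 1 side of all 5 wild-type libraries, which 0.93% of all genes tested had.

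Fold changes were large with large errors, and the direction of the B genes turned when a single tumour was left out. Cd79a averaged 8.48 ± 11.4 CPM (SD, n = 5) in wild-type and 19.7 ± 34.8 CPM (SD, n = 5) in labelled-deleted tumours. Its log2 fold change, labelled-deleted against wild-type, was 1.22 (SE 1.37, edgeR adjusted p = 0.823). Without labelled-deleted tumour 3 it was -1 (SE 1.2, edgeR adjusted p = 0.743). The same turn was seen in Ms4a1 (1.19 to -1.27), Cr2 (1.65 to -1.24), Pax5 (0.99 to -1.55), Fcer2a (0.94 to -1.69) and Blk (1.03 to -0.83). All 11 tested B surface and signalling genes had positive values with all libraries, from 0.48 to 1.65, and all 11 had negative values without that tumour, from -1.69 to -0.34. Of all 29 tested members 26 were positive with it and 5 without it (Jchain, Cd8a, Cd8b1, Lck and Prf1). Without it, 1 member, Prf1, had an unadjusted p under 0.05, beside 9.82% of all genes.

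**Figure D3:**
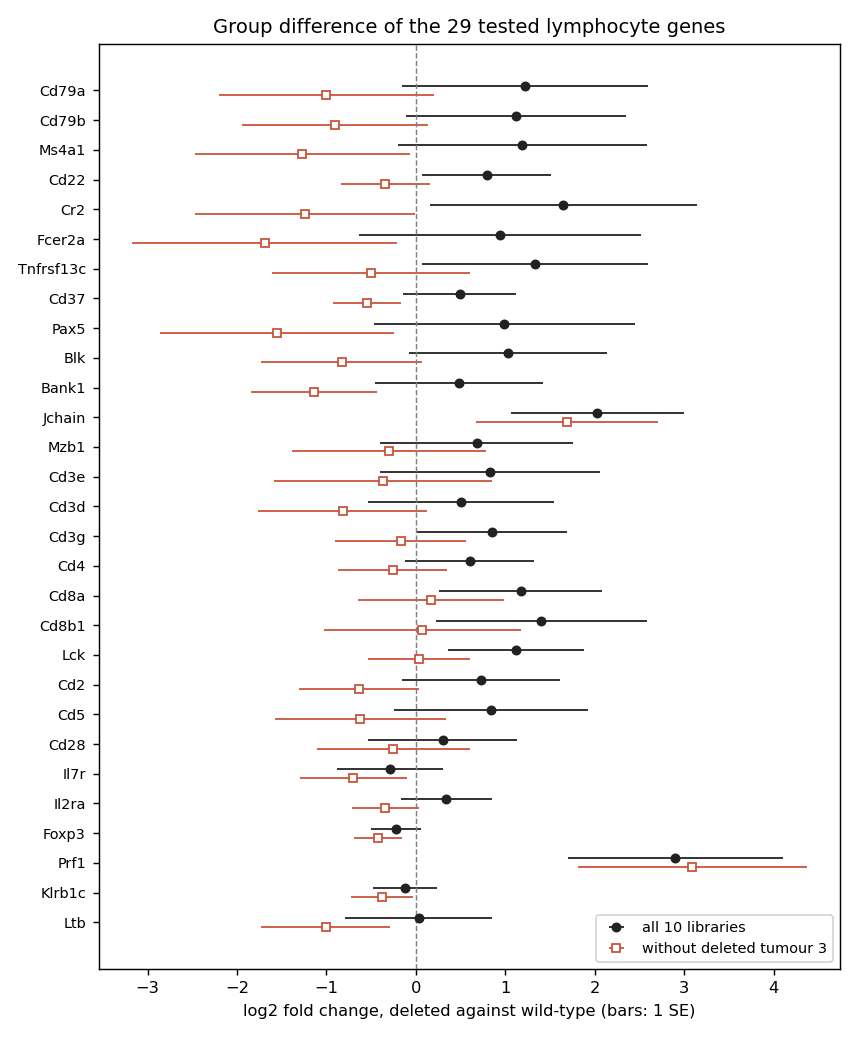
Log2 fold change of the 29 tested genes, labelled-deleted against wild-type, with bars of 1 SE. Filled circles use all 10 libraries and open squares leave out labelled-deleted tumour 3. The B genes move from right to left of 0, whereas Jchain and Prf1 stay on the right.

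By list, the 13 tested B-lymphocyte genes, Jchain and Mzb1 included, had a median log2 fold change of 1.03 and the 13 tested T-lymphocyte genes one of 0.73, beside 0.03 over all genes tested. The medians were -0.90 and -0.34 without labelled-deleted tumour 3, and the B median was 2.46 without wild-type tumour 3. By group medians, 17 of 37 genes had a higher median CPM in the labelled-deleted group, 7 of 12 among B surface and signalling genes and 3 of 9 among T-receptor genes. The T-receptor genes ran from 0.51 to 1.40 in log2 fold change, with Cd8b1 (1.40, SE 1.18), Cd8a (1.17, SE 0.91), Lck (1.12, SE 0.76), Cd3e (0.83, SE 1.23) and Cd4 (0.60, SE 0.72). For these 5 genes edgeR adjusted p values lay between 0.759 and 0.872. Costimulation genes were near 0, as for Foxp3 at -0.22 (SE 0.28) and Cd28 at 0.30 (SE 0.83). Ltb was at 0.03 (SE 0.82), and its sign changed with the tool.

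Jchain and the killing genes had the largest values. Jchain averaged 24.7 ± 26.3 CPM (SD, n = 5) in wild-type and 101 ± 91.6 CPM (SD, n = 5) in labelled-deleted tumours. Its log2 fold change was 2.03 (SE 0.97, edgeR adjusted p = 0.759). It was 1.56 without labelled-deleted tumour 2 and 1.69 without labelled-deleted tumour 3. Prf1 had a log2 fold change of 2.90 (SE 1.2, edgeR adjusted p = 0.759), and of 0.68 (SE 0.74) without labelled-deleted tumour 1. Gzma and Gzmb did not pass the main low-count filter. With no such filter they had log2 fold changes of 3.13 (SE 1.18) and 3.32 (SE 1.18), with an edgeR adjusted p of 0.665 for both. In that fit 3 of 37 members (Gzma, Gzmb and Prf1) had an unadjusted p under 0.05, beside 4.94% of 31660 genes.

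B and T genes co-varied over the 10 tumours, and part of this rested on a split between low and high libraries. Values are log2 CPM. Sorted Cd79a values had their widest gap, 1.91 on the log2 scale, between labelled-deleted 2 and wild-type 1, followed by gaps of 1.65 and 1.55. The widest gap set 4 low libraries (wild-type 2 and 4, labelled-deleted 1 and 2) apart from the other 6, so each r over all 10 libraries includes that split. It is given beside r within the 6 higher libraries, a range added after the data were seen, while 4 libraries are too few to test. Cd79a and Cd3e, genes of different cell types, had Pearson r = 0.95 (permutation p = 3e-05, adjusted over the 28 pairs of 8 chosen genes 0.00042) and Spearman rho = 0.91 (permutation p = 0.00051, adjusted 0.00442). Without the 2 libraries farthest from the median of Cd79a (wild-type 4 and labelled-deleted 3) r was 0.90, and with group means subtracted 0.94. Within the 6 higher libraries r was 0.78 (exact permutation p = 0.0819, adjusted 0.117) and rho 0.60 (exact permutation p = 0.242, adjusted 0.294), which did not pass. Cd79a and Ms4a1 had r = 0.98 (permutation p = 1e-05, the smallest the 100000 resamples can give, adjusted 0.00028), rho = 0.94 (permutation p = 0.00017, adjusted 0.00442) and r = 0.98 without labelled-deleted 1 and 3. Within the 6 higher libraries their r was 0.99 (exact permutation p = 0.00278, adjusted 0.0292). Their rho there was 0.94 (exact permutation p = 0.0167, adjusted 0.0933), which did not pass. Cd3e and Cd8a had r = 0.94 (permutation p = 0.00012, adjusted 0.00056), rho = 0.91 (permutation p = 0.00078, adjusted 0.00442) and r = 0.88 without wild-type 2 and labelled-deleted 3. Within the 6 higher libraries r was 0.97 (exact permutation p = 0.00694, adjusted 0.0324). The rho there was 0.83 (exact permutation p = 0.0583, adjusted 0.148), which did not pass. In these 6 libraries even a rho of 1.0 did not pass, as given below, so the rank results there decide nothing.

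Of the 28 pairs among Ms4a1, Cd79a, Cr2, Jchain, Cd3e, Cd8a, Nkg7 and Ltb, 20 passed at an adjusted permutation p under 0.05. The 10 pairs among Ms4a1, Cd79a, Cr2, Cd3e and Cd8a all passed, with r from 0.80 to 0.98, and 7 of them passed without the 2 farthest libraries (r from 0.61 to 0.98). Jchain passed in 0 of its 7 pairs. With Cd79a it had r = 0.35 (permutation p = 0.322, adjusted 0.364) and rho = 0.33 (permutation p = 0.35, adjusted 0.408), and r = -0.05 without wild-type 4 and labelled-deleted 3. Jchain with Cd3e had r = 0.35 over all libraries and 0.89 without wild-type 5 and labelled-deleted 2, so this relation depends on those libraries. Nkg7 and Cd3e had r = 0.73 (permutation p = 0.0158, adjusted 0.0296) and rho = 0.64 (permutation p = 0.0511, adjusted 0.0895). Without wild-type 2 and labelled-deleted 3 this r was 0.46, and without labelled-deleted 1 alone it was 0.96. Within the 6 higher libraries it was 0.91 (exact permutation p = 0.0167, adjusted 0.0389), with rho 0.71 (exact permutation p = 0.136, adjusted 0.181). The size of this r thus depends on the libraries used. The number of pairs that passed by Pearson r was 13 within the 6 higher libraries and 12 without the 2 farthest libraries of each pair. Of those 12, 9 were among the 21 pairs without Jchain. The other 3 were Jchain with Cd3e, Cd8a and Nkg7, which had not passed over all 10 libraries. By Spearman rho no pair passed within the 6 higher libraries, where the lowest adjusted permutation p was 0.0778 (Cd3e with Ltb). That pair had a rho of 1.0 (exact permutation p = 0.00278). A perfect rank order thus did not pass, and nothing is read from the rank count within those 6 libraries. By Pearson r there, Ms4a1 and Cr2 passed with Cd8a but not with Cd3e, and Cd79a passed with neither. Leaving out 1 library gave 8 without labelled-deleted 3, and 12 each without wild-type 2, wild-type 3 or labelled-deleted 5.

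**Figure D4:**
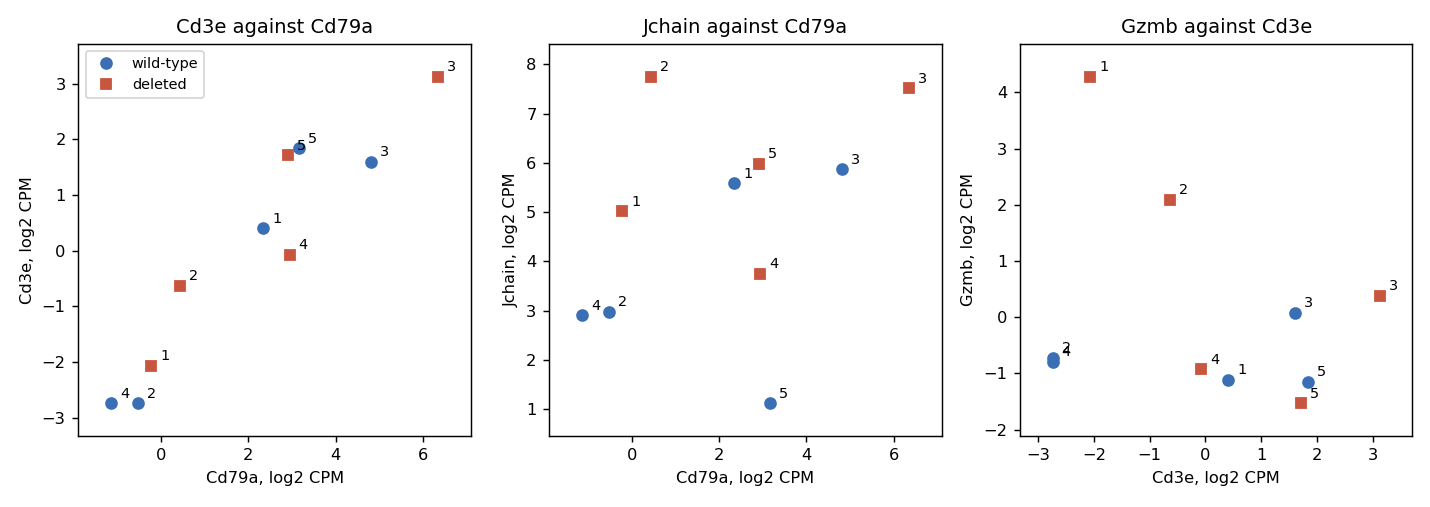
Log2 CPM of 2 genes in each panel, 1 point per tumour with its replicate number. Cd3e follows Cd79a over all 10 tumours (r = 0.95, and 0.78 within the 6 with the higher Cd79a), Jchain departs from Cd79a in labelled-deleted 2 and wild-type 5 (r = 0.35), and Gzmb is highest in labelled-deleted 1, where Cd3e is among the lowest.

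Across all members, described with no test, the 66 pairs of B surface and signalling genes had a median r of 0.94 (0.86 to 0.99) and the 36 pairs of T-receptor genes one of 0.92 (0.79 to 0.98). The 108 pairs of a B gene with a T-receptor gene had a median of 0.91, nearly that within each cell type. All of these pairs share the libraries, their depth and the split between low and high libraries. The 6 costimulation genes were looser, with a median r of 0.74 (0.36 to 0.90). The 6 NK and cytotoxic genes had a median r of 0.34 among themselves (-0.27 to 0.73), of 0.08 with B genes and of 0.03 with T-receptor genes. Their highest pair was Gzmb with Prf1 at 0.73, and Gzmb with Cd5 was at -0.52. Jchain and Mzb1 had r = 0.91. An r of at least 0.9 with Cd79a was reached by 17 of the 36 other members and by 0.254% of 16564 other tested genes, members included, and with Nkg7 by 0 of 36 members and 0.048% of 16565 genes, so nothing is read from that count.

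**Figure D5:**
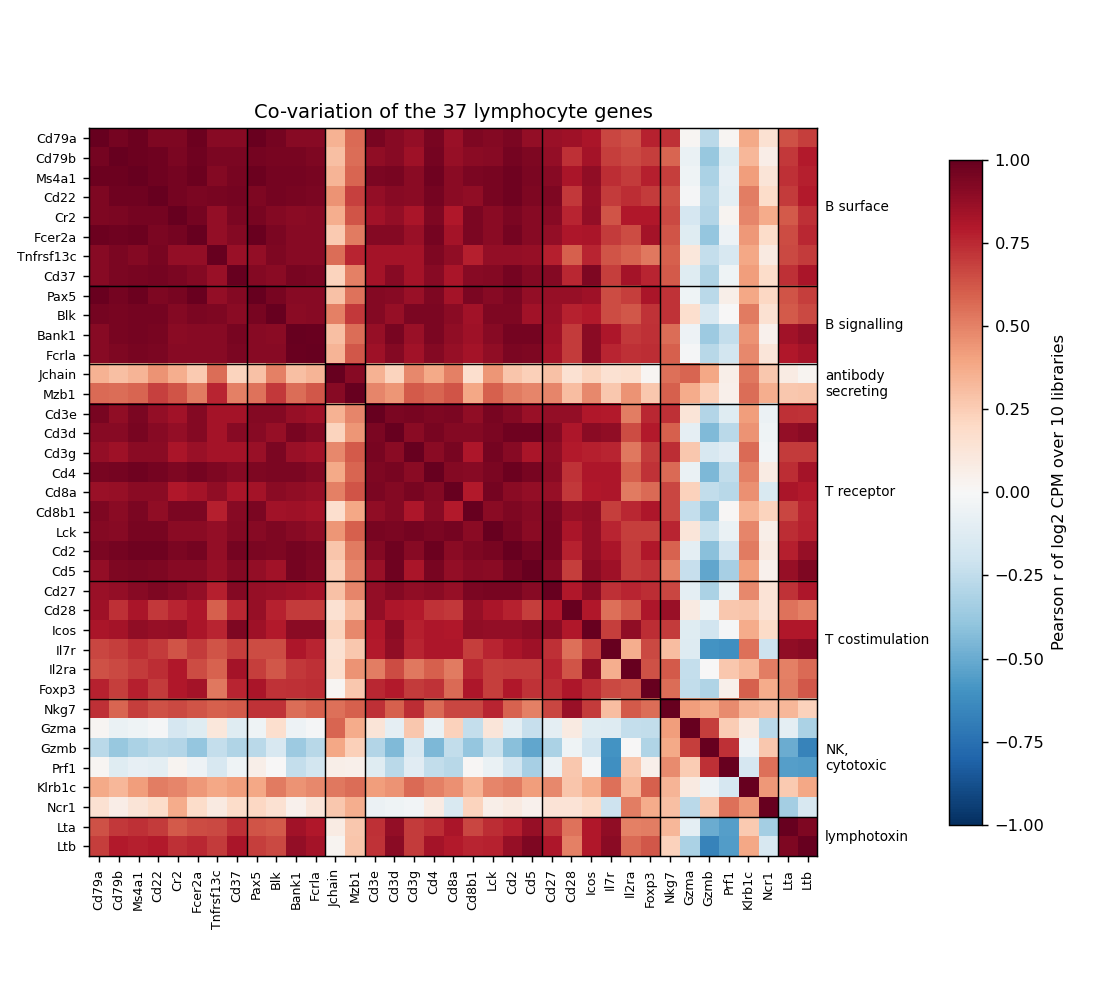
Pearson r of log2 CPM over 10 libraries for each pair of the 37 genes, ordered by role, with black lines between roles. The B and T-receptor genes form 1 block (median r 0.91 between them), Jchain and Mzb1 stand aside, and Gzma, Gzmb and Prf1 have r from -0.52 to 0.27 with the block.

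Non-members with the most similar pattern were taken from the 5 with the highest r, with no p. For Cd79a they included Fcmr (r = 0.978), the IgM Fc receptor, Gimap3 (0.972), Ikzf3 (0.969) and Ighd (0.965), the IgD constant gene. For Cd3e they included Gimap3 (0.981), Themis (0.964) and Fam169b (0.964). Gimap3 was thus among the most similar to both a B-cell and a T-cell gene. Nkg7 was matched by Sh2d2a (0.962), Hsh2d (0.957), Enpp4 (0.937) and the class I genes H2-Q7 (0.914) and H2-Q5 (0.913). The last pair are related genes of the same family, and whether estimated counts were divided between them was not tested.

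Other genes of the same pathways were taken from lists. Of 18 tested B-cell signalling and identity genes, 9 had positive and 9 negative log2 fold changes, with a median of 0.03 and none called. The smallest p values belonged to Cd40 (-1, SE 0.48), Ralgps2 (-0.20, SE 0.11) and Btk (-0.44, SE 0.30), and Cd40 and Btk are also expressed by myeloid cells. Of 23 tested T-cell genes 20 were positive (median 0.64), 0 were called and 2 had an unadjusted p under 0.05 (5.93% of all genes tested did), Bcl11b (0.73, SE 0.26) and Trbc2 (1.26, SE 0.51), both highest in labelled-deleted tumour 1. The third by p was Lef1 (0.65, SE 0.34). Of 9 tested NK and cytotoxic genes 6 were positive (median 0.21), with Eomes (1.14, SE 0.45), Gzmc (2.23, SE 1.22) and Sh2d2a (1.22, SE 0.69) lowest in p. The 9 tested plasma-cell genes had a median of 0.68, with Xbp1 (-0.44, SE 0.23), Igkc (1.82, SE 0.94) and Sdc1 (-0.28, SE 0.17). Xbp1 and Sdc1 are also expressed by epithelial cells. In edgeR's test none of these lists had a called gene.

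Of the 14 genes of the lymphotoxin and lymphoid tissue list, 12 were highest in labelled-deleted tumour 3, a share not counted over all genes. In wild-type tumour 3, which was second for all 12 B surface and signalling genes, 3 of the 14 were highest or second. The exceptions to the first count were Chst4, highest in labelled-deleted tumour 2, and Ltbr, highest in wild-type tumour 4. Unlike in the B genes, some leads were narrow. Tnfsf14 was 6.07 CPM against 6.05 CPM in wild-type 5, and Tnfsf11 was 8.54 CPM against 8.09 CPM in labelled-deleted 2. Glycam1, a mucin-like ligand of L-selectin on high endothelial venules, was 63.3 CPM in labelled-deleted tumour 3 and 17.4 CPM in wild-type tumour 3, and 6.51 CPM or lower elsewhere, with 0 counts in 3 libraries. Cxcl13, the chemokine that draws B cells into follicles, was 48.5 and 25.4 CPM in those tumours and 8.7 CPM or lower elsewhere. Ccl21a, a chemokine of T-cell zones, was 155 and 70.8 CPM, with 1.61 to 76.8 CPM elsewhere. These 3 genes were chosen after their values were seen. Over the 14 genes the sum was 646 CPM in labelled-deleted tumour 3 and 269 to 430 CPM in the other libraries. The median log2 fold change of the list was 0.18, with Tnfsf11 (1.10, SE 0.55), Ltbr (-0.11, SE 0.07) and Chst4 (1.09, SE 0.76) lowest in p and none called. All 5 tested germinal centre genes had positive log2 fold changes (median 0.26, none called). S1pr2 (0.32, SE 0.22), Rgs13 (0.66, SE 0.94) and Mybl1 (0.26, SE 0.34) were the lowest in p in that list. None of the 6 lymphocyte development genes passed the filter, and Rag2 was at 0 in all 10 libraries.

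Markers of other cells also varied between the tumours, acinar genes more widely than the lymphocyte genes, with a median SD of log2 CPM of 3.59 beside 1.68. Pan-leukocyte genes summed to 527 to 975 CPM in wild-type and 400 to 1140 CPM in labelled-deleted tumours, highest in labelled-deleted tumour 3. Macrophage genes summed to 2880 to 5050 and 1380 to 4070 CPM, and 7 of 7 had negative log2 fold changes (median -0.59), of which 0 were called and 2 had an unadjusted p under 0.05, beside 5.93% of all genes tested. Acinar genes summed to 23.5 to 16100 and 74.1 to 11800 CPM. The part of any of these in the lymphocyte values was not tested. Of 21 pairs of Cd79a, Cd3e or Nkg7 with Ptprc, Cd68, Epcam, Col1a1, Prss2, Pecam1 or Mki67, 0 passed at an adjusted permutation p under 0.05. With Ptprc, the leukocyte gene CD45, Cd3e had r = 0.71 (permutation p = 0.0245, adjusted 0.447) and rho = 0.76 (permutation p = 0.0141, adjusted 0.148), and r = 0.57 without wild-type 2 and labelled-deleted 3. Without wild-type tumour 4, 5 of the 21 pairs passed.

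The ratio of T to B sums varied less than the sums themselves. In the libraries low in B genes, Cd37 and Cd22, with the narrowest ranges, made up most of the B sum. In wild-type 2 they were 11.7 and 5.56 of 19.4 CPM, so the ratio says little about the other B genes there. For single genes, Cd3e beside Cd79a was 0.497 and 1.21 CPM in labelled-deleted 2 and 8.62 and 81.6 CPM in labelled-deleted 3. The sum of the 9 T-receptor genes divided by the sum of the 8 B surface genes was 0.249 to 0.479 in wild-type and 0.281 to 0.622 in labelled-deleted tumours. Labelled-deleted tumour 3, with 403 CPM of B surface and 115 CPM of T-receptor genes, had a ratio of 0.285, within the range of the other libraries.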

How the data were processed

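Polyadenylated RNA was sequenced on an Illumina NovaSeq from KAPA mRNA HyperPrep libraries, per the labels' protocols. The authors deposited estimated counts per gene for 10 libraries. RSEM 1.3.3, HISAT2 2.2.1 and the mm10 build are named in the submitters' processing notes, and no source used here gives the annotation release or strand setting. Of the deposited estimated counts 7.96% were not whole, and all were rounded. The authors also deposited log2 values per tumour, whose transformation is not named, which served 1 alternative. Genes were kept with filterByExpr (minimum count 10) of edgeR 4.0.16, scaled by TMM and tested with the robust quasi-likelihood test and Benjamini-Hochberg adjustment at 0.05. Log2 CPM used a prior count of 2, and correlations used two-sided permutation tests with 100000 resamples. Values and p-values measure the spread between tumours, and every pair within a group differed by more than sampling noise. Coordinates and exon lengths are from GENCODE M21 (GRCm38, the assembly of mm10), which holds 55141 of the 55487 identifiers.

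The 37 genes and all lists were chosen with earlier results of these data known. Values in every library are given for 14 preselected members and, in each list, for the tested member with the smallest p and that with the widest range. For pathway lists up to 3 genes with the smallest p are named, and for 3 genes the 5 most similar non-members, of which some are not reported here. A comparison of receptor-chain proteins was planned, and protein sequences were not used here. Alternatives were DESeq2 1.42.0, limma 3.58.1 (voom, and the deposited log2 values), other scaling and filters, blocks by replicate or tumour ID number, and leaving out libraries. The tumour ID numbers were 36, 38, 38, 40 and 40 for wild-type tumours 1 to 5. They were 25, 36, 38, 39 and 40 for labelled-deleted tumours 1 to 5, and their meaning is not given. The count test was tested on simulated data. R 4.3.3 and Python 3.11.15 were used.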

Additional observations from a re-analysis of the deposited data

How the results depend on the processing

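No member was called by any tool or setting run (DESeq2 gave an adjusted p for 30 of 37), and DESeq2 called 7 genes in all. The B-lymphocyte median of 1.03 ran from -0.90 (without labelled-deleted tumour 3) to 2.46 (without wild-type tumour 3) when 1 library was left out. The T-lymphocyte median of 0.73 ran from -0.34 to 1.07. The NK and cytotoxic median of 1.39, over 2 tested genes, ran, with 2 to 4 tested, from 0.30 (without labelled-deleted 1) to 3.20 (without labelled-deleted 5) and was 0.36 on the deposited log2 values and 0.38 with the tumour ID number as a block. Without labelled-deleted tumour 3 the log2 fold change reversed for Ms4a1 (-1.27), Cd79a (-1), Cr2 (-1.24), Cd3e (-0.37), Cd4 (-0.26), Ltb (-1.01), Fcer2a (-1.69), Blk (-0.83), Pax5 (-1.55) and Cd28 (-0.25). The highest values with 1 library left out were 2.53 for Ms4a1, 2.45 for Cd79a, 3.48 for Cr2, 0.96 for Cd4, 2.55 for Fcer2a, 2.46 for Pax5 and 2.08 for Blk, all without wild-type tumour 3, and 1.37 for Cd3e and 0.93 for Cd28 without wild-type tumour 5. Ltb, at 0.03, also reversed with limma-voom (-0.70), the deposited log2 values (-0.39), the replicate block (-0.60) and without wild-type 1 (-0.02), wild-type 2 (-0.23) or labelled-deleted 5 (-0.01), and Cd28 without wild-type 4 (-0.01). The cause of these turns was not tested beyond the library left out. Prf1, at 2.90, was 1.59 with limma-voom and 0.76 on the deposited log2 values. It was 1.48 with the replicate block and 0.59 with the tumour ID number as a block. Jchain was 2.81 (SE 0.67) with the tumour ID number as a block and was not called. It was the 1 of 29 tested members with an unadjusted edgeR p under 0.05 in that fit, beside 638 of 16565 genes. Deviations of same-numbered tumours correlated at 0.07, 0.11, 0.32, -0.02 and 0.39, and those of differently numbered tumours at -0.47 to 0.43. Whether the replicate number pairs the tumours was not tested. With this replicate block 0 genes and 0 members were called, and the B and T medians were 0.62 and 0.33. Of 28 pairs, 20 were correlated, 11 by Spearman rho, 12 without the 2 farthest libraries, and 8 to 18 with 1 library left out. Without the 2 farthest libraries, 3 of the 12 were Jchain pairs that had not passed over all libraries. Within the 6 libraries with the higher Cd79a (added after seeing the data) 13 passed by Pearson r and none by Spearman rho. Even a rho of 1.0 did not pass in those 6 libraries, so the rank count decides nothing. Of 21 pairs with other markers 0 passed, and 0 to 5 with 1 library left out. Depth limits Ncr1, Lta, Gzma and Nkg7, where 3 counts are 0.16 to 0.302 CPM.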
